A study of Mus musculus with 20 samples.

Results

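The basement membrane genes described here are 35 of the 27179 genes in the deposited table, picked by symbol: 6 type IV collagens, 2 multiplexin collagens, 10 laminin chains, and 17 nidogens, proteoglycans, matricellular proteins, netrins, Fraser complex members, a receptor and other basement membrane proteins. All 35 were found, and 33 averaged 10 or more normalized reads across the 20 libraries and entered the tests. Lama1 and Frem2 were below that level. The 4 groups of 5 RNA-seq libraries were all made from PDGFRb+ cells taken by flow cytometry from the inguinal white fat of male mice of the C57BL/6 strain: DPP4+ cells (called APC in the labels and progenitor cells in the title of the study) of mice held at 6 °C for 24 h, DPP4+ cells of mice at 22 °C, DPP4- cells after the same cold exposure, and DPP4- cells at 22 °C. The design sets DPP4+ against DPP4- cells at each temperature and cold against 22 °C in each population. The labels do not say whether the 5 libraries of a group came from separate mice, so p-values measure the spread between these libraries, which may be technical.

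Basement membranes are thin sheets of matrix that lie under epithelia and endothelia and around muscle fibres, Schwann cells and fat cells. Laminins, heterotrimers of an alpha, a beta and a gamma chain, form a polymer on the cell surface, type IV collagen forms another, covalently cross-linked network, and nidogens and the heparan sulfate proteoglycans perlecan and agrin bridge both. In adipose tissue each mature fat cell is wrapped in such a sheet, and stromal progenitor cells make many of its proteins.

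Each library held between 8.49 and 18.8 M reads (1 M is 1e+06). The sorted marker followed the labels: Dpp4 averaged 10035 and 8546 normalized reads in DPP4+ cells at 6 and 22 °C, against 61.3 and 67.9 in DPP4- cells. Pdgfrb, the other sorted marker, averaged 1505 and 2942 in DPP4+ cells and 4124 and 4126 in DPP4- cells. Normalized reads are gene counts divided by 1 factor per library, which left totals of 10.2 to 12.1 M in DPP4+ libraries and 15.4 to 17.3 M in DPP4- libraries. Setting these totals equal moved the median log2 difference of all 13057 tested genes between populations to 0.64 at 22 °C and 0.50 at 6 °C, against 0.03 at both temperatures with the deposited scaling. Modest differences between populations can therefore change sign with the scaling, and this is stated beside each gene where it happened. The other scalings tried were TMM and quantile normalization. Unless stated otherwise, means are given ± SD over 5 libraries, log2 differences are limma fits of log2(normalized reads + 1) ± SE, and adjusted p-values are Benjamini-Hochberg values over all 13057 genes, with a threshold of 0.05. Differences on this scale understate the change of genes with few reads.

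The 6 type IV collagen genes lie in the mouse genome (GRCm38.p6, RefSeq coordinates) as 3 head-to-head pairs, each pair transcribed outward from a common region. By the gene starts of GENCODE vM21, the start sites of Col4a1 (chr8:11198423-11312889, minus strand) and Col4a2 (chr8:11312805-11449287, plus strand) are 21 bases apart, those of Col4a3 and Col4a4 on chromosome 1 are 72 bases apart, and those of Col4a5 and Col4a6 on chromosome X are 1309 bases apart. The windows from 250 bases before to 50 bases after a RefSeq start are shown for the first and the last pair because Col4a1 and Col4a2 had the same calls in all 5 comparisons that follow and Col4a5 and Col4a6 had others. Capitals mark CCAAT and GGGCGG on either strand (ATTGG and CCGCCC on the strand printed), and no 2 of these matches overlap. The windows are Col4a1 at chr8:11312777-11313076 (minus strand), Col4a2 at chr8:11312555-11312854 (plus), Col4a5 at chrX:141475169-141475468 (plus) and Col4a6 at chrX:141474027-141474326 (minus), each printed 5′ to 3′ on its gene's strand.
Col4a1: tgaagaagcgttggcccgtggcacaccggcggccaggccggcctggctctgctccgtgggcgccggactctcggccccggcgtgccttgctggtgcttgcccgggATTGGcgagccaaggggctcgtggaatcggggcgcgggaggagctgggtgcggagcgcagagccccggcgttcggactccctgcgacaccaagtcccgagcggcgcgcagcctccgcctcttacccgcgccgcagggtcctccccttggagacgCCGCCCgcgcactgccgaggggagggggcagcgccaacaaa
Col4a2: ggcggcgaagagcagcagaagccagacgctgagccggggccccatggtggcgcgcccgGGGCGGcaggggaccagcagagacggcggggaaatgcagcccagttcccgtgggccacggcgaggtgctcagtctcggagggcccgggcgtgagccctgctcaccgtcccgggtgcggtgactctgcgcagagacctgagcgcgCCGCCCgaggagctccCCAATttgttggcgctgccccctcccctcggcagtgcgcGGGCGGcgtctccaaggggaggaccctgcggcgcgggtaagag
Col4a5: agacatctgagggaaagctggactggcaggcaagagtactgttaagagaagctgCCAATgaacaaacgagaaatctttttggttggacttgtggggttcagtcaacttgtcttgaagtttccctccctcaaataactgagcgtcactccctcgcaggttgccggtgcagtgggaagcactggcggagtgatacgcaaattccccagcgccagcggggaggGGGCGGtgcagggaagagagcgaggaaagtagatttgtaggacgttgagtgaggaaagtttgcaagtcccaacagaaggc
Col4a6: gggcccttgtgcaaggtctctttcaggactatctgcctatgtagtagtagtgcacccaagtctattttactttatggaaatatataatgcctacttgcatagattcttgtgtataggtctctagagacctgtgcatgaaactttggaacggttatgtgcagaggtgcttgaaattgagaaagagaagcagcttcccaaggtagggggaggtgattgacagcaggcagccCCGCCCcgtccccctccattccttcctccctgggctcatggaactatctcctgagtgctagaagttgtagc
The Col4a1 and Col4a2 windows share 78 bases on opposite strands. CCAAT was found once in each of the Col4a1, Col4a2 and Col4a5 windows and 0 times in that of Col4a6, and GGGCGG was found 3 times in the Col4a2 window and once in each of the other windows shown. The GGGCGG match of Col4a1 lies in the shared bases and is the same site as the last one in the Col4a2 window. Of 32851 RefSeq windows of this length, 37.4% hold CCAAT, 35.7% GGGCGG and 13.6% TATAAA on either strand. Among 32 windows of the 24 basement membrane genes with one, 13 hold CCAAT, 20 GGGCGG and 0 TATAAA. Some of these windows overlap, among them those of Dag1, Egflam and Lamb3, so the same site can be counted repeatedly. These matches describe letters and were not tested as binding sites.

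Levels were compared between genes per kb of exon. Sparc, the calcium- and collagen-binding glycoprotein also called osteonectin, ranked first of the 35 genes in all 4 groups, with 19002 and 19507 normalized reads per kb in DPP4+ cells at 6 and 22 °C, against 33500.5 and 46029 in DPP4- cells. Col4a1, which encodes the alpha-1 chain of the ubiquitous type IV collagen, ranked 2 in DPP4- cells at both temperatures, with 21895 at 6 °C and 26062 at 22 °C, and 4 and 7 in DPP4+ cells at 6 and 22 °C, with 2733 and 1664. Nid1, the linker nidogen-1, ranked 2 in DPP4+ cells and 4 in DPP4- cells at both temperatures, with 8470.5 and 7865 normalized reads per kb in DPP4+ cells at 6 and 22 °C, against 7224 and 8901 in DPP4- cells. The order within the set thus differed between the populations, with a linker at rank 2 in DPP4+ cells and a network collagen at that rank in DPP4- cells. The members took 2.07 to 2.36% of all reads in DPP4+ libraries at 6 °C and 1.95 to 2.46% at 22 °C, against 3.57 to 4.40% in DPP4- libraries at 6 °C and 4.45 to 4.74% at 22 °C. These shares need no scaling, and no DPP4+ library reached the lowest DPP4- library. At the other end, Lama1, an alpha chain of the early embryo and a few adult tissues, averaged 6.67 and 9.62 normalized reads in DPP4+ cells at 6 and 22 °C and 9.42 and 9.69 in DPP4- cells. Frem2, a Fraser complex member, averaged 0.952 and 1.45 in DPP4+ cells and 7.09 and 6.12 in DPP4- cells. Neither was tested.

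**Figure D1:**
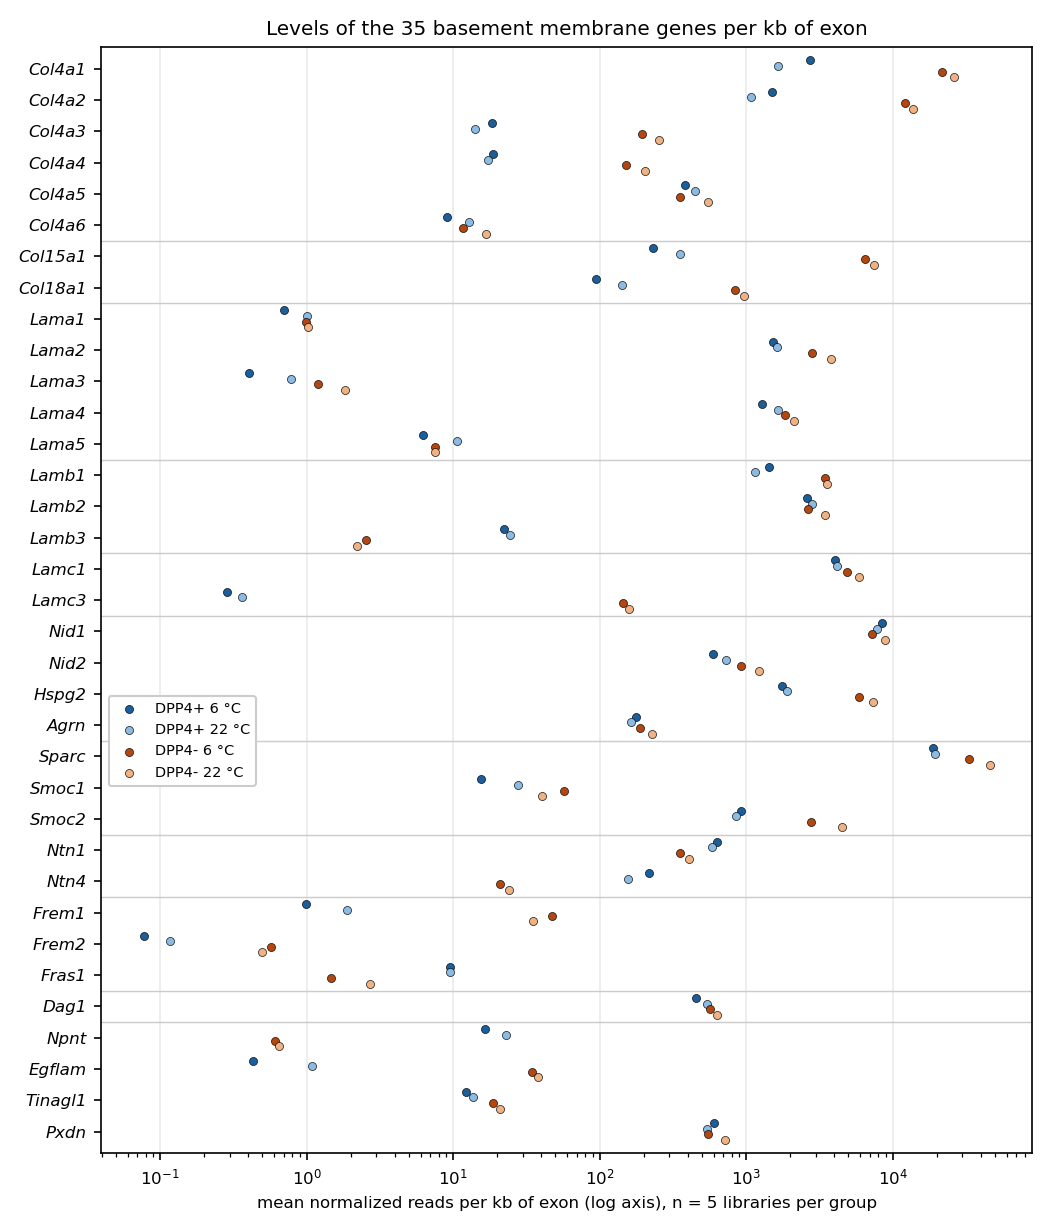
Mean normalized reads per kb of exon (log axis) of the 35 genes in the 4 groups, one point per group. Sparc stands highest in every group, and Col4a1, Col4a2 and Col15a1 lie far lower in both DPP4+ groups than in both DPP4- groups.

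Between the populations, most members were lower in DPP4+ cells. At 22 °C, 25 of the 33 tested members (75.8%) were lower in DPP4+ than in DPP4- cells and 5 (15.2%) were higher. Of all tested genes 74.9% passed the same threshold, 36.2% lower and 38.7% higher. At 6 °C 21 members (63.6%) were lower and 5 (15.2%) higher, against 35.7% and 38.5% of all genes, of which 74.2% were called. The members' median log2 difference was -0.61 at 22 °C and -0.63 at 6 °C, against 0.03 over all genes at each temperature. Of the 33, 21 were called lower and 5 higher at both temperatures, 0 in opposite directions, 4 at 1 temperature only and 3 at neither. With totals set equal, 12 members were higher and 14 lower at 22 °C, against 69.7% and 15.6% of all genes, and 11 were higher and 16 lower at 6 °C, against 63.1% and 18.8%. With quantile normalization 10 were higher and 18 lower at each temperature, against 38.6% and 36% of all genes at 22 °C and 38.4% and 35.5% at 6 °C. Under all 4 scalings the same 5 genes, Lamb3, Ntn1, Ntn4, Fras1 and Npnt, were called higher at both temperatures. Called lower under all 4 at both were 13: Col4a1, Col4a2, Col4a3, Col4a4, Col15a1, Col18a1, Lama2, Lamb1, Lamc3, Hspg2, Smoc2, Frem1 and Egflam. Lama3 and Smoc1 joined these at 6 °C. Called in one direction under one scaling and in the other under another were 6 members at 22 °C and 2 at 6 °C. For counts over all 4 scalings, here and below, the share of all genes was not computed. Such counts therefore do not tell whether the members differ from other genes. The groups of 5 libraries did not overlap for 25 members at 22 °C (5 higher and 20 lower), against 64.8% of all genes (33.4% higher and 31.4% lower). At 6 °C they did not overlap for 22 (5 higher and 17 lower), against 57.1% of all genes (29.8% and 27.4%). Lamc3, Egflam and Lama3 reached the level for testing only through DPP4- cells and Npnt only through DPP4+ cells, so a difference in these 4 was in part set by that filter. The cells are bulk samples, in which fewer cells of a kind and less RNA per cell cannot be told apart.

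**Figure D2:**
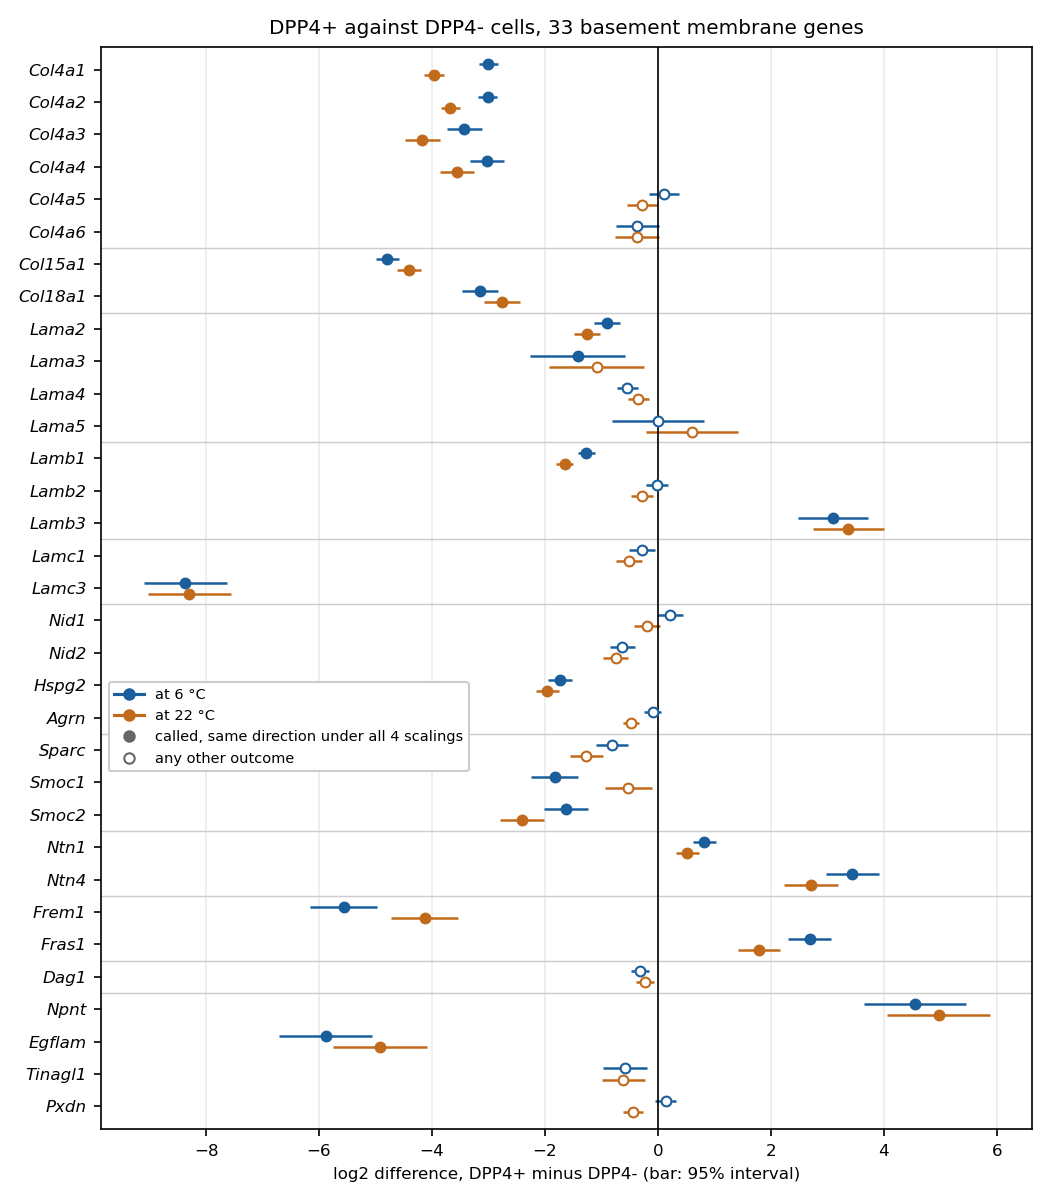
Log2 difference of DPP4+ minus DPP4- cells, with 95% intervals, for the 33 tested genes at 6 °C (blue, upper) and 22 °C (orange, lower), filled where the call kept its direction under all 4 scalings and open for any other outcome. Lamc3 lies at -8.37 and -8.29 and Npnt at 4.55 and 4.97, and open points near 0 include genes such as Lamc1 and Lamb2 whose sign turns with totals set equal.

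Type IV collagens form the covalent network of the basement membrane. The chains of the ubiquitous network, Col4a1 and Col4a2, and those of the Col4a3 and Col4a4 pair, known from kidney and lung, were all lower in DPP4+ cells at both temperatures. With the deposited scaling, Col4a5 was called at 22 °C only and Col4a6 at neither temperature. Col4a1 had 19935, 17736, 18444, 17968 and 16325 normalized reads in DPP4+ libraries at 6 °C and 10135, 11411, 10923, 11231 and 11344 in those at 22 °C. In DPP4- libraries Col4a1 had 132646, 141216, 146805, 139305 and 164204 normalized reads at 6 °C and 200009, 155850.0, 157443, 165377 and 183321 at 22 °C. Every DPP4+ library lay far below every DPP4- library, and within DPP4+ cells the cold libraries lay above all those at 22 °C. The log2 difference of DPP4+ minus DPP4- cells was -3.00 ± 0.084 (adjusted p = 3.2e-19) at 6 °C and -3.96 ± 0.084 (adjusted p = 4.35e-21) at 22 °C, so the mean was 8.01-fold and 15.7-fold lower. Col4a2 averaged 9660.4 ± 847 and 6960.1 ± 389 normalized reads in DPP4+ cells at 6 and 22 °C and 78288 ± 8043 and 89084 ± 6399 in DPP4- cells at 6 and 22 °C. Its differences were -3.02 ± 0.082 (adjusted p = 1.81e-19) at 6 °C and -3.68 ± 0.082 (adjusted p = 5.62e-21) at 22 °C, and its groups did not overlap. Col4a3 averaged 158 ± 50.3 and 120.3 ± 16.9 normalized reads in DPP4+ cells at 6 and 22 °C and 1655 ± 81.4 and 2190.4 ± 299 in DPP4- cells at 6 and 22 °C, with differences of -3.43 ± 0.15 (adjusted p = 2.07e-14) and -4.18 ± 0.15 (adjusted p = 1.07e-15) at 6 and 22 °C. Of its exon bases, 6.58% overlap another gene, and the strand used in counting is not stated. Col4a4 averaged 190.3 ± 47.9 and 175 ± 29.6 normalized reads in DPP4+ cells at 6 and 22 °C and 1523 ± 76.0 and 2069.7 ± 326 in DPP4- cells at 6 and 22 °C, with differences of -3.03 ± 0.15 (adjusted p = 1.19e-13) and -3.56 ± 0.15 (adjusted p = 1.07e-14). Col4a5 had 1874, 2567, 2937, 2383 and 2776 normalized reads in DPP4+ libraries at 6 °C and 2295, 3263, 3027, 2780.5 and 3390.2 in those at 22 °C. In DPP4- libraries Col4a5 had 1756, 2177, 2780.4, 2362 and 2517 normalized reads at 6 °C and 4140.2, 3621, 3337, 3225 and 3553 at 22 °C. The populations overlapped at both temperatures for this chain, and the DPP4- libraries at 22 °C were the highest group. With the deposited scaling Col4a5 was lower in DPP4+ cells at 22 °C, with a difference of -0.28 ± 0.13 (adjusted p = 0.0483), which turned to 0.33 with totals set equal and 0.15 with quantile normalization, and the call was lost without any 1 of 12 libraries (adjusted p up to 0.157). At 6 °C its difference with the deposited scaling was 0.11 ± 0.13 (adjusted p = 0.429), with a 95% interval of -0.15 to 0.38. That interval does not cover the choice of scaling, since setting totals equal moved the median of all genes at 6 °C to 0.50. Col4a6 averaged 60.6 ± 18.4 and 85.1 ± 15 normalized reads in DPP4+ cells at 6 and 22 °C and 77.3 ± 19.5 and 111 ± 20.9 in DPP4- cells at 6 and 22 °C and with the deposited scaling passed the threshold at neither temperature (adjusted p = 0.0841 and 0.0749). Its differences of -0.36 at 6 °C and -0.37 at 22 °C turned to 0.099 and 0.23 with totals set equal, and with quantile normalization, at -0.49 and -0.66, it was called lower at both (adjusted p = 0.021 and 0.00265).

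The multiplexin collagens carry heparan sulfate or chondroitin sulfate chains and end in anti-angiogenic domains, of which endostatin from Col18a1 is the best known. Both were lower in DPP4+ cells at both temperatures under all 4 scalings. Col15a1 had 1523, 1389.9, 1399, 1439 and 1218 normalized reads in DPP4+ libraries at 6 °C and 2321, 2332, 1888, 2066 and 2074 in those at 22 °C. In DPP4- libraries Col15a1 had 29293, 34185, 41695, 43838 and 46860.5 normalized reads at 6 °C and 42159.7, 47383, 45977, 46391 and 44363 at 22 °C. The populations were far apart, with the highest DPP4+ library far below the lowest DPP4- library, and the DPP4+ libraries at 6 °C lay below those at 22 °C. Col15a1 (chr4:47207655-47313167) differed by -4.79 ± 0.099 (adjusted p = 7.83e-22) at 6 °C and -4.41 ± 0.099 (adjusted p = 5.62e-21) at 22 °C, or 28.1-fold and 21.2-fold lower in DPP4+ cells. Col18a1 averaged 639.5 ± 144 and 973 ± 139.7 normalized reads in DPP4+ cells at 6 and 22 °C and 5683 ± 1217 and 6586 ± 723 in DPP4- cells at 6 and 22 °C. Its differences were -3.15 ± 0.15 (adjusted p = 2.17e-13) and -2.76 ± 0.15 (adjusted p = 1.95e-12) at 6 and 22 °C.

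Laminins assemble from one alpha, one beta and one gamma chain, and the alpha chain sets which receptors bind. Among 4 tested alpha chains, Lama2, Lama3 and Lama4 were lower in DPP4+ cells at both temperatures with the deposited scaling, and Lama5 passed the threshold at neither. Lama2 had 11379, 15551, 15149.5, 13736 and 19315 normalized reads in DPP4+ libraries at 6 °C and 12576, 14986, 18629, 15212 and 17792 in those at 22 °C. In DPP4- libraries Lama2 had 26873, 27629, 26206, 29118 and 28740.0 normalized reads at 6 °C and 40307, 33809.7, 36117, 37986 and 39156 at 22 °C. Lama2, the alpha chain of muscle and nerve laminin, was lower in every DPP4+ library than in every DPP4- library at the same temperature. Its differences were -0.90 ± 0.11 (adjusted p = 1.08e-07) at 6 °C and -1.25 ± 0.11 (adjusted p = 4.14e-10) at 22 °C. Lama4, the alpha chain of vascular and adipose laminin, averaged 7744 ± 1306 and 10064 ± 858 normalized reads in DPP4+ cells at 6 and 22 °C and 11173 ± 632 and 12747 ± 258 in DPP4- cells at 6 and 22 °C. Its difference was -0.54 ± 0.089 (adjusted p = 7.35e-06) at 6 °C, where totals set equal gave -0.075 and quantile normalization -0.15, neither past the threshold. At 22 °C the difference of -0.35 ± 0.089 (adjusted p = 0.00127) turned to 0.27 with totals set equal and 0.32 with quantile normalization. Lama3, a chain of epithelial laminin, had few reads, with 4.34 ± 2.22 and 8.35 ± 4.08 normalized reads in DPP4+ cells at 6 and 22 °C and 12.9 ± 4.55 and 19.8 ± 11.5 in DPP4- cells at 6 and 22 °C. Its differences were -1.42 ± 0.41 (adjusted p = 0.00315) at 6 °C and -1.08 ± 0.41 (adjusted p = 0.0196) at 22 °C, and the call at 22 °C was lost without DPP4+ library 2 or DPP4- library 5 at 22 °C (adjusted p up to 0.0792). Lama3 reached the level for testing only through DPP4- cells, so its difference was in part set by that filter. Lama5, broadly expressed in epithelia and endothelia, averaged 70.6 ± 15 and 121 ± 11.1 normalized reads in DPP4+ cells at 6 and 22 °C and 85.2 ± 57.6 and 85.3 ± 33.7 in DPP4- cells at 6 and 22 °C, and its differences were 0.0043 ± 0.39 (adjusted p = 0.993) and 0.60 ± 0.39 (adjusted p = 0.171) at 6 and 22 °C, the first of which was -0.0027 with TMM and -0.13 with quantile normalization. With totals set equal Lama5 was called higher in DPP4+ cells at 22 °C.

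The beta chains split. Lamb1 was lower in DPP4+ cells at both temperatures, Lamb3 was higher, and Lamb2 turned with the scaling. Lamb1 had 8128, 8317, 8994, 8111 and 8279 normalized reads in DPP4+ libraries at 6 °C and 5774, 6455, 7252, 6519 and 7406 in those at 22 °C. In DPP4- libraries Lamb1 had 19300.0, 19818, 21101, 19875 and 20534 normalized reads at 6 °C and 22218, 19995, 19368, 20613 and 22581 at 22 °C. The DPP4+ libraries all lay below the DPP4- libraries, and the cold DPP4+ libraries lay above the DPP4+ libraries at 22 °C. Lamb1 differed by -1.27 ± 0.070 (adjusted p = 5.71e-14) at 6 °C and -1.65 ± 0.070 (adjusted p = 5.44e-16) at 22 °C. Lamb2 had 12470.5, 15318, 14356, 14418 and 17105 normalized reads in DPP4+ libraries at 6 °C and 14062, 15865, 17060.3, 15572 and 17303 in those at 22 °C. In DPP4- libraries Lamb2 had 14169, 16988, 13863, 15369 and 13684 normalized reads at 6 °C and 24285, 17878, 17263, 18638 and 19752 at 22 °C. For Lamb2, the beta chain of laminins at the neuromuscular junction and in the kidney, the populations overlapped at both temperatures. Its difference of -0.29 ± 0.095 (adjusted p = 0.0096) at 22 °C turned to 0.33 with totals set equal and 0.46 with quantile normalization, and at 6 °C the value was -0.011 ± 0.095 (adjusted p = 0.924), against 0.46 and 0.62 under those scalings. Lamb3 had 88.0, 137, 95.2, 83.6 and 168 normalized reads in DPP4+ libraries at 6 °C and 78.4, 103, 124, 139.7 and 184 in those at 22 °C. In DPP4- libraries Lamb3 had 10.7, 19.1, 12.1, 18.8 and 4.94 normalized reads at 6 °C and 13.5, 6.01, 12.6, 13.8 and 10.3 at 22 °C. Lamb3, the beta chain of the anchoring laminin of skin, was higher in every DPP4+ library than in any DPP4- library. Its differences were 3.10 ± 0.30 (adjusted p = 4.42e-09) at 6 °C and 3.37 ± 0.30 (adjusted p = 1.14e-09) at 22 °C, or 8.70-fold and 11.2-fold higher means.

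Of the gamma chains, Lamc1, part of most laminins, differed in a direction that turned with the scaling, and Lamc3 was close to 0 in DPP4+ cells and lower there at both temperatures. Lamc1 had 23822, 31299.7, 31216, 28679 and 39189.6 normalized reads in DPP4+ libraries at 6 °C and 24720.1, 33145, 35606, 29917 and 34792 in those at 22 °C. In DPP4- libraries Lamc1 had 36923, 33776, 34569.7, 38793 and 41903 normalized reads at 6 °C and 49642, 42994, 43648, 43529 and 45408 at 22 °C. At 6 °C 1 DPP4+ library, library 5, lay among the DPP4- libraries and the other 4 lay below all of them, while at 22 °C the populations were apart. With the deposited scaling the Lamc1 differences were -0.28 ± 0.11 (adjusted p = 0.0253) at 6 °C and -0.52 ± 0.11 (adjusted p = 0.000201) at 22 °C, against 0.18 and 0.093 with totals set equal and 0.41 and 0.31 with quantile normalization. The call at 6 °C was lost without library 1 or 4 of the DPP4+ cells or library 4 or 5 of the DPP4- cells at 6 °C (adjusted p up to 0.0998). Lamc3 had 0.862, 0, 1.94, 2.56 and 2.99 normalized reads in DPP4+ libraries at 6 °C and 3.11, 3.27, 1.45, 0.626 and 2.18 in those at 22 °C. In DPP4- libraries Lamc3 had 393, 699, 786, 1139 and 1227 normalized reads at 6 °C and 856, 818, 817, 918 and 1283 at 22 °C. The DPP4+ libraries held at most a few reads, and 1 was at 0, whereas all DPP4- libraries lay far above them. Lamc3 (chr2:31887281-31949083) differed by -8.37 ± 0.36 (adjusted p = 1.62e-14) and -8.29 ± 0.36 (adjusted p = 2.1e-14) at 6 and 22 °C, the largest differences of any member, with means 508-fold and 441-fold lower in DPP4+ cells. Lamc3 reached the level for testing only through DPP4- cells, so its difference was in part set by that filter. Its folds rest on DPP4+ means of very few reads. Overlap with another gene covers 5.60% of its exon bases.

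Nidogens and heparan sulfate proteoglycans tie the laminin and collagen networks together. Hspg2, which encodes perlecan, and Nid2 were lower in DPP4+ cells at both temperatures, Agrn, which encodes agrin, was called at 22 °C only, and Nid1 at neither. Nid1 had 41779, 55371, 51361, 45718 and 63739.6 normalized reads in DPP4+ libraries at 6 °C and 35044, 49112, 51196, 47827 and 56350.0 in those at 22 °C. In DPP4- libraries Nid1 had 45026, 44041, 42488, 45503 and 42958 normalized reads at 6 °C and 55942, 52784, 50719, 54265 and 57358 at 22 °C. The populations overlapped at both temperatures, and the DPP4+ libraries were spread more widely than the DPP4- libraries. Nid1 differed by 0.21 ± 0.11 (adjusted p = 0.0846) at 6 °C, with a 95% interval of -0.015 to 0.44, and by -0.19 ± 0.11 (adjusted p = 0.116) at 22 °C, with an interval of -0.42 to 0.035. Totals set equal gave 0.68 and 0.42 and quantile normalization 0.92 and 0.72, so Nid1 was called higher in DPP4+ cells under both. Nid2 averaged 2891 ± 474 and 3548 ± 166 normalized reads in DPP4+ cells at 6 and 22 °C and 4483 ± 758 and 5969 ± 361 in DPP4- cells at 6 and 22 °C. The Nid2 differences were -0.63 ± 0.11 (adjusted p = 1.17e-05) and -0.75 ± 0.11 (adjusted p = 1.12e-06) at 6 and 22 °C, against -0.17 and -0.14 with totals set equal, where it passed at neither, and 8.96% of its exon bases overlap a gene on the opposite strand. Hspg2 averaged 25039 ± 1727 and 26999 ± 1704 normalized reads in DPP4+ cells at 6 and 22 °C and 83899 ± 14096 and 105132 ± 11255 in DPP4- cells at 6 and 22 °C. Its differences were -1.73 ± 0.10 (adjusted p = 1.9e-13) at 6 °C and -1.96 ± 0.10 (adjusted p = 2.22e-14) at 22 °C, and held under all 4 scalings. Agrn averaged 1380.1 ± 60.3 and 1270.3 ± 39.3 normalized reads in DPP4+ cells at 6 and 22 °C and 1483 ± 189 and 1769 ± 145 in DPP4- cells at 6 and 22 °C. Its difference of -0.47 ± 0.071 (adjusted p = 2.1e-06) at 22 °C turned to 0.14 with totals set equal, and that of -0.096 ± 0.071 (adjusted p = 0.227) at 6 °C turned to 0.37.

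The calcium-binding matricellular proteins were all called lower in DPP4+ cells at both temperatures with the deposited scaling. Sparc had 42285, 56598, 57202, 50752 and 51691 normalized reads in DPP4+ libraries at 6 °C and 33734, 62841, 48829, 56719 and 63266 in those at 22 °C. In DPP4- libraries Sparc had 73783, 108316, 98584, 85526 and 89566 normalized reads at 6 °C and 125840.0, 136968, 109317, 121683 and 132414 at 22 °C. Each DPP4+ library lay below each DPP4- library of the same temperature. Sparc differed by -0.81 ± 0.14 (adjusted p = 1.47e-05) at 6 °C and -1.27 ± 0.14 (adjusted p = 1.73e-08) at 22 °C, by -0.35 and -0.66 with totals set equal, and by -0.084 and -0.17 with quantile normalization, where it passed at neither temperature. Smoc2, a SPARC-related modular protein, averaged 2788 ± 850.5 and 2588 ± 544 normalized reads in DPP4+ cells at 6 and 22 °C and 8427 ± 915 and 13686 ± 2959 in DPP4- cells at 6 and 22 °C, with differences of -1.64 ± 0.19 (adjusted p = 1.56e-07) and -2.41 ± 0.19 (adjusted p = 5.47e-10). Smoc1, its paralog, averaged 54.2 ± 11.4 and 96.4 ± 14.3 normalized reads in DPP4+ cells at 6 and 22 °C and 201 ± 62.6 and 141 ± 30.1 in DPP4- cells at 6 and 22 °C. It differed by -1.83 ± 0.20 (adjusted p = 3.91e-08) at 6 °C and by -0.52 ± 0.20 (adjusted p = 0.0246) at 22 °C, where totals set equal turned it to 0.085 and the call was lost without DPP4+ library 3 or 5 or DPP4- library 2 or 4 at 22 °C (adjusted p up to 0.0697).

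The netrins, laminin-related proteins of which netrin-4 binds laminin gamma chains, were both higher in DPP4+ cells under all 4 scalings. Ntn1 had 3135, 3821, 3805, 3534 and 5031 normalized reads in DPP4+ libraries at 6 °C and 3175, 3267, 4113, 3471 and 3867 in those at 22 °C. In DPP4- libraries Ntn1 had 2028, 2409, 2111, 2182 and 2067 normalized reads at 6 °C and 2907, 2295, 2407, 2332 and 2563 at 22 °C. All DPP4+ libraries lay above all DPP4- libraries of the same temperature. Ntn1 differed by 0.82 ± 0.098 (adjusted p = 7.17e-08) at 6 °C and 0.52 ± 0.098 (adjusted p = 5.5e-05) at 22 °C. Ntn4 had 768, 854, 763, 640.4 and 952 normalized reads in DPP4+ libraries at 6 °C and 534, 542, 601, 527 and 629 in those at 22 °C. In DPP4- libraries Ntn4 had 44.2, 115, 104, 69.6 and 51.0 normalized reads at 6 °C and 75.6, 87.1, 56.7, 118 and 104 at 22 °C. Ntn4 was higher in every DPP4+ library than in any DPP4- library, and the cold DPP4+ libraries lay above those at 22 °C. Its differences were 3.44 ± 0.23 (adjusted p = 4.31e-11) and 2.71 ± 0.23 (adjusted p = 1.69e-09) at 6 and 22 °C, or 10.4-fold and 6.42-fold.

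Fraser complex proteins anchor epithelial basement membranes to the dermis in the embryo. Their 2 tested genes went opposite ways, Frem1 lower and Fras1 higher in DPP4+ cells. Frem1 had 12.1, 7.23, 16.5, 9.38 and 2.99 normalized reads in DPP4+ libraries at 6 °C and 18.7, 16.4, 23.9, 15.7 and 18.2 in those at 22 °C. In DPP4- libraries Frem1 had 369, 438, 588, 600.4 and 320.2 normalized reads at 6 °C and 248, 425, 389, 289 and 374 at 22 °C. DPP4+ libraries held few reads and DPP4- libraries far more, with no overlap. Frem1 differed by -5.56 ± 0.28 (adjusted p = 2.68e-13) at 6 °C and -4.13 ± 0.28 (adjusted p = 3.87e-11) at 22 °C, or 48.1-fold and 18.6-fold lower. Fras1 had 150.1, 190.0, 165, 105 and 147 normalized reads in DPP4+ libraries at 6 °C and 130.0, 155, 164, 131 and 170.1 in those at 22 °C. In DPP4- libraries Fras1 had 30.8, 27.3, 25.6, 18.8 and 13.2 normalized reads at 6 °C and 39.2, 40.5, 49.1, 49.1 and 36.0 at 22 °C. Fras1 was higher in each DPP4+ library than in each DPP4- library, and within DPP4- cells the cold libraries lay below those at 22 °C. Its differences were 2.69 ± 0.18 (adjusted p = 3.06e-12) and 1.79 ± 0.18 (adjusted p = 4.9e-09).

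Among the receptor and the remaining members, Npnt was higher and Egflam lower in DPP4+ cells under all 4 scalings, and Dag1, Pxdn and Tinagl1 depended on the scaling or on the temperature. Npnt had 86.2, 78.2, 95.2, 88.7 and 47.9 normalized reads in DPP4+ libraries at 6 °C and 124, 119, 86.8, 117 and 105 in those at 22 °C. In DPP4- libraries Npnt had 5.36, 2.73, 4.05, 0 and 2.47 normalized reads at 6 °C and 4.05, 4.50, 0, 3.07 and 3.86 at 22 °C. Npnt, which encodes the integrin alpha-8 ligand nephronectin, was far higher in each DPP4+ library than in any DPP4- library. Its differences were 4.55 ± 0.44 (adjusted p = 3.66e-09) at 6 °C and 4.97 ± 0.44 (adjusted p = 8.6e-10) at 22 °C, or 27.1-fold and 35.7-fold. Egflam had 5.17, 1.97, 0, 2.56 and 0.748 normalized reads in DPP4+ libraries at 6 °C and 9.33, 3.27, 4.34, 4.38 and 5.09 in those at 22 °C. In DPP4- libraries Egflam had 80.4, 265, 205, 192 and 94.6 normalized reads at 6 °C and 127, 167, 166, 229 and 237 at 22 °C. Egflam, which encodes the dystroglycan ligand pikachurin, was close to 0 in DPP4+ libraries and much higher in all DPP4- libraries. It differed by -5.88 ± 0.40 (adjusted p = 1.41e-11) and -4.92 ± 0.40 (adjusted p = 3.01e-10) at 6 and 22 °C. Npnt reached the level for testing only through DPP4+ cells and Egflam only through DPP4- cells. The difference of each was in part set by that filter. Dag1 had 2361, 2669, 2664, 2543 and 3327 normalized reads in DPP4+ libraries at 6 °C and 2964, 3274, 3451, 3086 and 3258 in those at 22 °C. In DPP4- libraries Dag1 had 2916, 3267, 3311, 3614 and 3708 normalized reads at 6 °C and 3897, 3799.7, 3626, 3764 and 3748 at 22 °C. Dag1, the precursor of the laminin receptor dystroglycan, overlapped between populations at 6 °C and did not at 22 °C. Its differences of -0.31 ± 0.076 (adjusted p = 0.000739) at 6 °C and -0.23 ± 0.076 (adjusted p = 0.00817) at 22 °C turned to 0.15 and 0.38 with totals set equal. Pxdn had 4586, 5689, 5077, 4608 and 5489 normalized reads in DPP4+ libraries at 6 °C and 3353, 4992, 4553, 4451 and 5218 in those at 22 °C. In DPP4- libraries Pxdn had 4526, 4498, 4876, 4568 and 4612 normalized reads at 6 °C and 6147, 5742, 5872, 6095 and 6405 at 22 °C. Pxdn, the peroxidase that forms the sulfilimine bonds of type IV collagen, was apart between populations at 22 °C only. Its difference of -0.44 ± 0.089 (adjusted p = 0.000102) at 22 °C turned to 0.17 with totals set equal and 0.11 with quantile normalization, and that at 6 °C was 0.14 ± 0.089 (adjusted p = 0.169), against 0.60 and 0.46. Tinagl1, a tubulointerstitial nephritis antigen-like matrix protein, averaged 26.5 ± 3.79 and 29.7 ± 6.11 normalized reads in DPP4+ cells at 6 and 22 °C and 40.9 ± 9.12 and 45.8 ± 8.55 in DPP4- cells at 6 and 22 °C. Its differences were -0.59 ± 0.19 (adjusted p = 0.00708) and -0.61 ± 0.19 (adjusted p = 0.00516), against -0.13 and -0.016 with totals set equal, where it passed at neither temperature.

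**Figure D3:**
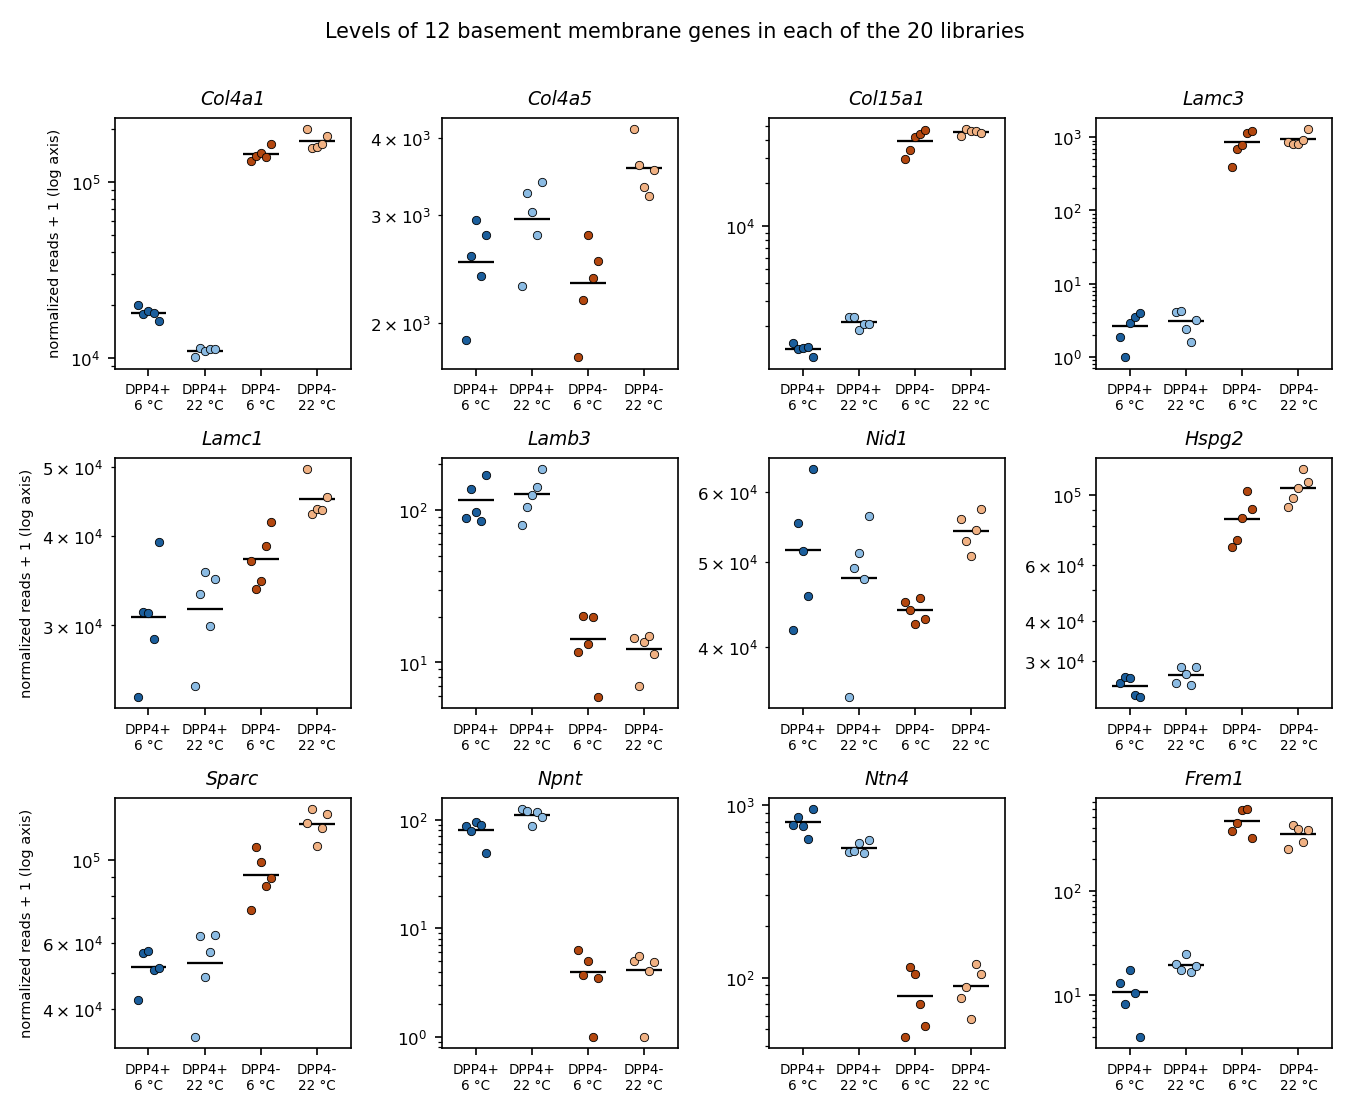
Normalized reads + 1 on a log axis for 12 members in DPP4+ cells at 6 and 22 °C and DPP4- cells at 6 and 22 °C, with 1 point per library and a line at each group mean. Col4a1, Col15a1, Lamc3, Hspg2 and Frem1 lie lower and Lamb3, Ntn4 and Npnt higher in DPP4+ libraries, whereas Nid1 overlaps between populations and the order of the Lamc1 means turns if totals are set equal.

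Cold exposure for 24 h was followed by 12 called members in DPP4+ cells and 8 in DPP4- cells, and the network chains Col4a1, Col4a2 and Lamb1 were the 3 that were higher. In DPP4+ cells 3 of 33 members (9.09%) were higher and 9 (27.3%) lower at 6 °C than at 22 °C, against 23.5% and 22.6% of all tested genes, of which 46.1% were called. In DPP4- cells 0 were higher and 8 (24.2%) lower, against 1.98% and 3.23% of all genes, of which 5.22% were called, and 22 members had an unadjusted p under 0.05, against 20.5% of all genes. With totals set equal 0 members were higher and 6 lower, against 7.01% and 1.74% of all genes, and with quantile normalization 0 and 4, against 1.69% and 2.12%. The count of 8 was 5 without DPP4- library 3 at 6 °C or DPP4- library 1 at 22 °C, and 12 without DPP4+ library 5 at 6 °C, which enters through the shared spread. Nid2 was the member called in both populations, 11 were called in DPP4+ cells only, 7 in DPP4- cells only and 14 in neither. The members' median log2 difference was -0.12 in DPP4+ and -0.26 in DPP4- cells, against 0.0058 and 8.91e-05 over all genes. The groups of 5 did not overlap for 8 members in DPP4+ cells, against 38.4% of all genes, and for 12 in DPP4- cells, all lower, against 4.87% of all genes in either direction and 3.22% lower. Overlap was judged with the deposited scaling only. That scaling left totals of 15.4 to 16.2 M in DPP4- libraries at 6 °C and 16.3 to 17.3 M at 22 °C. Setting totals equal moved the median log2 difference of all genes in DPP4- cells to 0.097. Both cold comparisons use libraries that also enter the comparisons of the populations.

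In DPP4+ cells the chains of the ubiquitous type IV network and the laminin beta-1 chain rose in the cold, and both multiplexin collagens fell, under all 4 scalings. Col4a1 rose by 64.2% of its mean at 22 °C, with a log2 difference of 0.71 ± 0.084 (adjusted p = 2.12e-07), and all 5 cold libraries lay above all 5 at 22 °C. Col4a2 was 38.8% higher, with a difference of 0.47 ± 0.082 (adjusted p = 5.11e-05). Lamb1 was 25.2% higher, with a difference of 0.33 ± 0.070 (adjusted p = 0.000441), and its groups did not overlap. Of the other type IV chains, 3 did not pass the threshold, where Col4a3 differed by 0.35 ± 0.15 (adjusted p = 0.0569), Col4a4 by 0.10 ± 0.15 (adjusted p = 0.605) and Col4a5 by -0.24 ± 0.13 (adjusted p = 0.132). Col4a6 fell, with a difference of -0.52 ± 0.19 (adjusted p = 0.0268), but the call was lost without library 1 or 2 at 6 °C or library 2 or 5 at 22 °C (adjusted p up to 0.0832). Col15a1 differed by -0.61 ± 0.099 (adjusted p = 1.89e-05) and Col18a1 by -0.62 ± 0.15 (adjusted p = 0.00241), both lower in the cold. Lama4 fell by 23.1%, with a difference of -0.39 ± 0.089 (adjusted p = 0.000908), while Lama2 differed by -0.084 ± 0.11 (adjusted p = 0.57), with a 95% interval of -0.31 to 0.15. The shared gamma chain Lamc1 differed by -0.043 ± 0.11 (adjusted p = 0.78), with an interval of -0.27 to 0.19, and Lamb2 by -0.12 ± 0.095 (adjusted p = 0.318).

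Among the linkers, Nid2 was lower in cold DPP4+ cells, with a difference of -0.31 ± 0.11 (adjusted p = 0.0196) that was lost without library 5 at 6 °C (adjusted p = 0.0641), whose Nid2 value of 2074 stood below the other 4, at 2942 to 3223. Nid1, Hspg2 and Agrn did not pass the threshold, with differences of 0.11, -0.11 and 0.12. Smoc1 fell by 43.8%, with a difference of -0.83 ± 0.20 (adjusted p = 0.00192) and no overlap, while its paralog Smoc2 differed by 0.090 ± 0.19 (adjusted p = 0.722), or -0.044 with quantile normalization, and Sparc by -0.0097 ± 0.14 (adjusted p = 0.962). Frem1, already low in DPP4+ cells, differed by -1.02 ± 0.28 (adjusted p = 0.00574), with 1 cold library among the values at 22 °C. Dag1 fell by 15.4%, with a difference of -0.25 ± 0.076 (adjusted p = 0.00988). Egflam, at a few reads per library, differed by -1.22 ± 0.40 (adjusted p = 0.016), which was lost without library 3 at 6 °C or library 1 at 22 °C (adjusted p up to 0.0566) and in edgeR. Ntn4 differed by 0.48 ± 0.23 (adjusted p = 0.0899) and its cold libraries all lay above those at 22 °C, but the model did not pass the threshold.

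In DPP4- cells every called member was lower in the cold. Fras1 fell by 45.9%, with a difference of -0.91 ± 0.18 (adjusted p = 0.00516), Col4a5 by 35.1%, with -0.64 ± 0.13 (adjusted p = 0.00562), Lamb2 by 24.3%, with -0.40 ± 0.095 (adjusted p = 0.0162), and Pxdn by 23.7%, with -0.39 ± 0.089 (adjusted p = 0.0109). These 4 were called under all 4 scalings, and their cold libraries all lay below those at 22 °C. The other 4 depended on the scaling or on single libraries. Lama2 differed by -0.43 ± 0.11 (adjusted p = 0.0236), which was lost without any 1 of 3 libraries (adjusted p up to 0.057), and Nid2 by -0.43 ± 0.11 (adjusted p = 0.0204), which was lost without library 1 at 6 °C or library 1 at 22 °C (up to 0.0576). Agrn differed by -0.26 ± 0.071 (adjusted p = 0.0333) and Smoc2 by -0.68 ± 0.19 (adjusted p = 0.0382), which were lost without any 1 of 6 and 7 libraries, each with adjusted p up to 0.0881. Col4a1 and Col4a2, which rose in cold DPP4+ cells, differed by -0.25 ± 0.084 (adjusted p = 0.0841) and -0.19 ± 0.082 (adjusted p = 0.182) in DPP4- cells with the deposited scaling, turning to 0.15 and 0.049 with quantile normalization. Sparc differed by -0.47 ± 0.14 (adjusted p = 0.0531) and Hspg2 by -0.34 ± 0.10 (adjusted p = 0.0546), neither past the threshold, and Hspg2 turned to 0.047 with quantile normalization. For 6 uncalled members, Col4a3, Col4a4, Lama4, Lamc1, Nid1 and Sparc, each cold library nonetheless lay below each library at 22 °C with the deposited scaling.

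**Figure D4:**
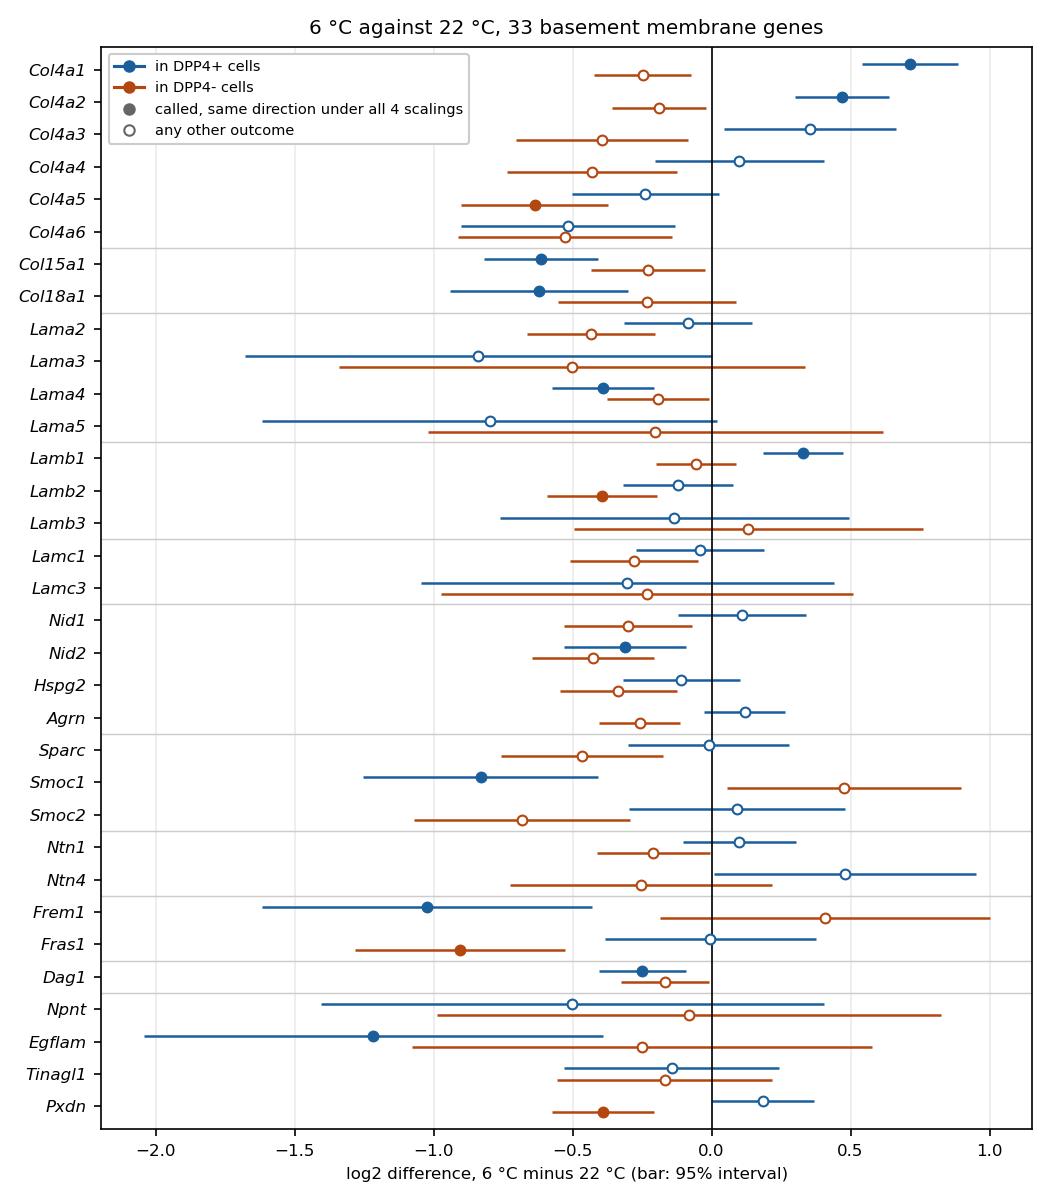
Log2 difference of 6 °C minus 22 °C with 95% intervals for the 33 tested genes, in DPP4+ cells (blue) and DPP4- cells (red-brown). In DPP4+ cells Col4a1, Col4a2 and Lamb1 lie above 0 and Smoc1, Frem1 and Egflam lie lowest among called genes, whereas called genes in DPP4- cells all lie below 0.

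The cold effects themselves differed between the populations for 12 of 33 members (36.4%), 9 more positive and 3 more negative in DPP4+ cells, against 33.2% of all genes, 16.8% and 16.4%. With totals set equal 7 were more positive and 5 more negative, against 8.64% and 23.4% of all genes, and with quantile normalization 5 and 6, against 15.1% and 16%. Under all 4 scalings the effect was more positive in DPP4+ cells for Col4a1, Col4a2, Col4a3, Fras1 and Pxdn and more negative for Col15a1, Smoc1 and Frem1. The difference of the effects was 0.96 ± 0.12 (adjusted p = 1.05e-06) for Col4a1 and 0.66 ± 0.12 (adjusted p = 0.000114) for Col4a2, where the effect was a rise in DPP4+ cells and no called change in DPP4- cells. For Col4a3 it was 0.75 ± 0.21 (adjusted p = 0.00913), with neither effect called on its own. The differences for Fras1, 0.90 ± 0.26 (adjusted p = 0.00947), and Pxdn, 0.57 ± 0.13 (adjusted p = 0.00102), went with falls in cold DPP4- cells. Smoc1, at -1.31 ± 0.29 (adjusted p = 0.00129), and Frem1, at -1.43 ± 0.40 (adjusted p = 0.00934), had lower cold than 22 °C values in DPP4+ cells and uncalled values of 0.48 and 0.41 in DPP4- cells. Col15a1 differed by -0.39 ± 0.14 (adjusted p = 0.0365), which was lost without any 1 of 10 libraries (adjusted p up to 0.0737). Lamb1, at 0.39 ± 0.099 (adjusted p = 0.004), and Agrn, at 0.38 ± 0.10 (adjusted p = 0.00541), kept their sign but not their call under every scaling. Nid1, at 0.41 ± 0.16 (adjusted p = 0.0477), was lost without any 1 of 15 libraries (up to 0.0897), and Smoc2, at 0.77 ± 0.26 (adjusted p = 0.0299), without any 1 of 4 (up to 0.0557). The populations were nearer to each other at 6 than at 22 °C for the Col4a1 pair, at -3.00 against -3.96 and -3.02 against -3.68, and further apart for Col15a1, Smoc1 and Frem1.

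Ratios between chains of the same library do not depend on a factor that scales the whole library, as the deposited, equal-total and TMM scalings do, whereas quantile normalization moves genes unequally. The 9 ratios of levels per kb were each compared in 4 contrasts by exact two-sided permutation tests of 5 against 5 libraries, 36 in all with Benjamini-Hochberg adjustment, where the smallest p such groups allow is 0.00794. The ratios were chosen after the values were seen. In the limma fits with quantile normalization, the direction was as with the deposited scaling in 33 of the 36, among them all 26 past the threshold. Col4a1 and Col4a2 made up 90.7 ± 1.89% and 84.7 ± 1.59% of the summed type IV level in DPP4+ cells at 6 and 22 °C, against 98.0 ± 0.123% and 97.5 ± 0.10% in DPP4- cells. Col4a5 and Col4a6 made up 8.48 ± 1.65% and 14.3 ± 1.48% in DPP4+ cells, against 1.05 ± 0.134% and 1.38 ± 0.103% in DPP4- cells. The alpha-5 and alpha-6 chains thus held a larger share of a smaller total in DPP4+ cells. The ratio of Col4a5 to Col4a1 was 0.142 ± 0.0298 and 0.27 ± 0.0299 in DPP4+ cells at 6 and 22 °C, against 0.0162 ± 0.00214 and 0.0211 ± 0.00158 in DPP4- cells, and no groups compared overlapped (exact p = 0.00794, adjusted 0.0124 in each contrast). Col4a1 to Col4a2, whose proteins assemble 2 to 1 in the network trimer, was 1.83 ± 0.0421 and 1.54 ± 0.0764 in DPP4+ cells, against 1.81 ± 0.0826 and 1.88 ± 0.0784 in DPP4- cells. It was lower in DPP4+ cells at 22 °C and lower there than in cold DPP4+ cells (exact p = 0.00794, adjusted 0.0124 for each), while the populations did not differ past the threshold at 6 °C (exact p = 0.69, adjusted 0.69), where the mean difference was 0.0190. The ratio of Col4a1 to Lamc1, the network collagen over the common laminin chain, was 0.70 ± 0.174 and 0.406 ± 0.0471 in DPP4+ cells, against 4.50 ± 0.359 and 4.40 ± 0.241 in DPP4- cells. It differed between populations at both temperatures and rose in cold DPP4+ cells (exact p = 0.00794, adjusted 0.0124 for each), and in cold DPP4- cells it did not pass the threshold (exact p = 0.619, adjusted 0.675).

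The laminin chains also differed in proportion. Lama2 made up 54.2 ± 1.23% and 48.9 ± 2.10% of the summed alpha level in DPP4+ cells at 6 and 22 °C, against 60.3 ± 0.740% and 64.3 ± 1.53% in DPP4- cells, and Lama4 nearly all of the rest. The ratio of Lama4 to Lama2 was 0.840 ± 0.0410 and 1.04 ± 0.0853 in DPP4+ cells, against 0.654 ± 0.0195 and 0.554 ± 0.0380 in DPP4- cells. No groups compared overlapped in any of the 4 contrasts (exact p = 0.00794, adjusted 0.0124 in each). The ratio was higher in DPP4+ cells at both temperatures, lower in the cold in DPP4+ cells and higher in the cold in DPP4- cells. Lamb1 to Lamb2 was 0.553 ± 0.0646 and 0.403 ± 0.00873 in DPP4+ cells, against 1.32 ± 0.143 and 1.04 ± 0.0903 in DPP4- cells. It was lower in DPP4+ cells at both temperatures and higher in the cold in both populations, again with no overlap (exact p = 0.00794, adjusted 0.0124 in each). Lamb2 therefore held 64.1 ± 2.61% and 70.9 ± 0.530% of the beta level in DPP4+ cells at 6 and 22 °C, against 43.2 ± 2.70% and 49.1 ± 2.30% in DPP4- cells. Lamc3 held 2.84 ± 0.949% and 2.64 ± 0.533% of the gamma level in DPP4- cells at 6 and 22 °C, and in no DPP4+ library more than 0.0163%. Of the linkers, Nid2 to Nid1 was 0.0729 ± 0.0215 in DPP4+ and 0.127 ± 0.0208 in DPP4- cells at 6 °C (exact p = 0.00794, adjusted 0.0124), and 0.0953 ± 0.0219 and 0.138 ± 0.00949 at 22 °C (exact p = 0.0238, adjusted 0.033), where the call was lost without any 1 of 7 libraries.

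**Figure D5:**
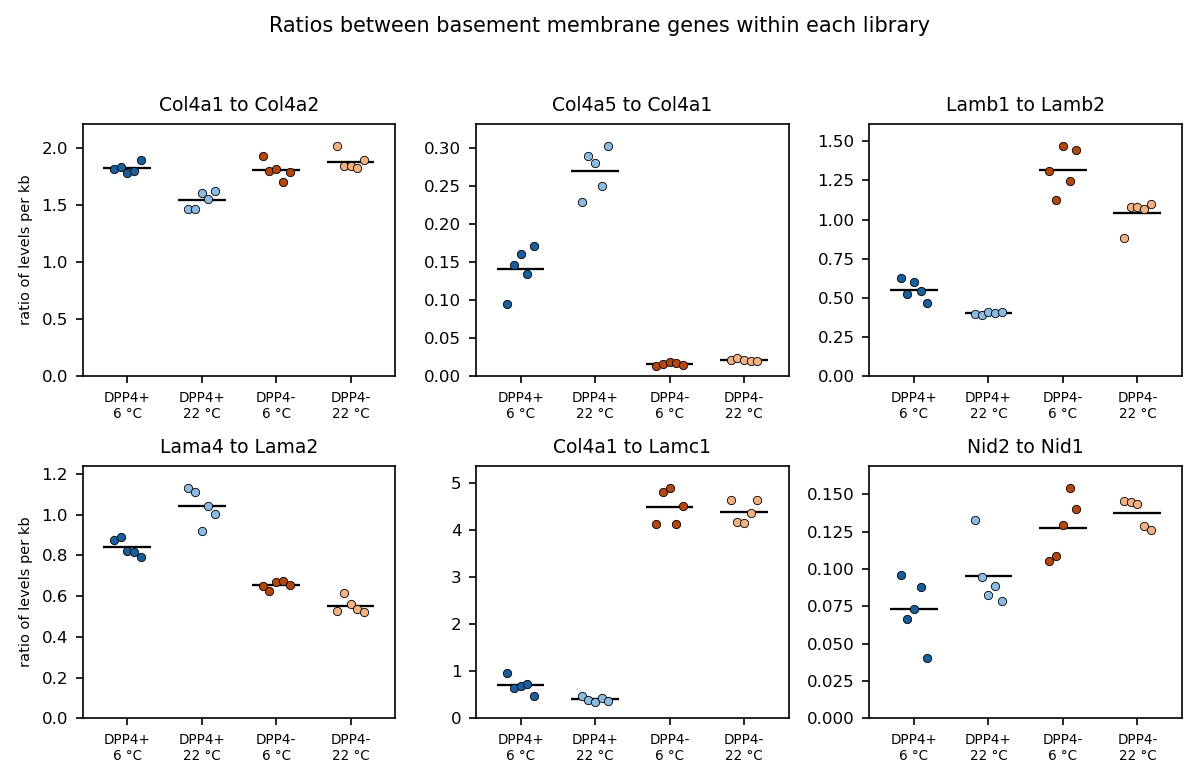
Ratios of levels per kb in each library (points) with group means (lines) for 6 pairs of chains, in DPP4+ cells at 6 and 22 °C and DPP4- cells at 6 and 22 °C. Col4a5 to Col4a1 lies higher and Lamb1 to Lamb2 and Col4a1 to Lamc1 lie lower in DPP4+ than in DPP4- libraries, and Lama4 to Lama2 is lower in the cold in DPP4+ cells and higher in the cold in DPP4- cells.

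Genes that act on basement membranes were counted as lists. Of 14 receptor genes for laminin and collagen, 4 were higher and 5 lower in DPP4+ than in DPP4- cells at 22 °C and 6 higher and 5 lower at 6 °C, and in the cold 4 were higher and 7 lower in DPP4+ cells and 0 higher and 2 lower in DPP4- cells. The shares called were 64.3% and 78.6% between populations at 22 and 6 °C and 78.6% and 14.3% for cold in DPP4+ and DPP4- cells, against 74.9%, 74.2%, 46.1% and 5.22% of all genes. Under all 4 scalings these counts were 4 and 1, 6 and 4, 4 and 6, and 0 and 1. Itga7, an alpha subunit of laminin-binding integrin, averaged 73.7 ± 17.1 and 9.54 ± 3.05 normalized reads in DPP4+ cells at 6 and 22 °C and 726 ± 221 and 710.1 ± 88.9 in DPP4- cells. It was lower in DPP4+ cells, with differences of -3.26 ± 0.20 (adjusted p = 4.09e-12) at 6 °C and -6.11 ± 0.20 (adjusted p = 1.63e-16) at 22 °C, and rose in cold DPP4+ cells, with 2.83 ± 0.20 (adjusted p = 2.57e-10). Itga2, a collagen- and laminin-binding subunit, averaged 572 ± 67.2 and 267 ± 22.7 in DPP4+ cells and 55.2 ± 9.83 and 81.8 ± 12.2 in DPP4- cells. It was higher in DPP4+ cells, with 3.36 ± 0.12 (adjusted p = 1.85e-17) at 6 °C and 1.70 ± 0.12 (adjusted p = 6.39e-12) at 22 °C, rose in cold DPP4+ cells, with 1.09 ± 0.12 (adjusted p = 6.88e-08), and fell in cold DPP4- cells, with -0.57 ± 0.12 (adjusted p = 0.00731). Ddr1, a collagen receptor kinase, was also higher in DPP4+ cells, with 1.08 ± 0.072 (adjusted p = 2.01e-12) and 1.68 ± 0.072 (adjusted p = 6.76e-16) at 6 and 22 °C. Itga8, whose product binds the nephronectin encoded by Npnt, was lower in DPP4+ cells at 6 °C, with -1.80 ± 0.14 (adjusted p = 4.04e-11), and fell in cold DPP4+ cells, with -1.37 ± 0.14 (adjusted p = 2.41e-08).

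Of 19 genes for collagen chain processing and cross-linking, DPP4+ cells had 4 higher and 11 lower than DPP4- cells at 22 °C and 7 higher and 9 lower at 6 °C, and 4 and 3 and 7 and 3 were so under all 4 scalings. In the cold, 4 were higher and 5 lower in DPP4+ cells, of which 0 and 5 held under all scalings, and 0 were higher and 5 lower in DPP4- cells, of which 3 held. The shares called in the same 4 comparisons were 78.9%, 84.2%, 47.4% and 26.3%, set against the shares of all genes given above. Plod1, a lysyl hydroxylase, averaged 1164 ± 43.7 and 1291 ± 51.3 in DPP4+ cells at 6 and 22 °C and 3928 ± 1001 and 4239.9 ± 520.0 in DPP4- cells, with differences of -1.72 ± 0.11 (adjusted p = 4.81e-12) and -1.71 ± 0.11 (adjusted p = 6.2e-12). P3h2, the prolyl 3-hydroxylase known to act on type IV collagen, was lower in DPP4+ cells at 6 °C, with -3.03 ± 0.22 (adjusted p = 7.34e-12), and fell in cold DPP4+ cells, with -1.70 ± 0.22 (adjusted p = 7.53e-07). Loxl1, a lysyl oxidase-like cross-linking enzyme, was higher in DPP4+ cells at 22 °C, with 0.85 ± 0.088 (adjusted p = 5.3e-09). Lox, the founding enzyme of that family, averaged 17673 ± 2661 and 33316 ± 2109 in DPP4+ cells at 6 and 22 °C and fell in the cold, with -0.93 ± 0.11 (adjusted p = 1.39e-07). It also fell in cold DPP4- cells, at 12757 ± 1378 against 17708 ± 2427, with -0.47 ± 0.11 (adjusted p = 0.0108). The cold effect on P4ha2, a prolyl 4-hydroxylase subunit, was more positive in DPP4+ than in DPP4- cells, by 0.65 ± 0.091 (adjusted p = 6.27e-06).

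Of 14 tested genes for matrix breakdown and its inhibitors, DPP4+ cells had 3 higher and 8 lower than DPP4- cells at 22 °C and 4 higher and 8 lower at 6 °C, with 3 and 5 and 4 and 5 under all 4 scalings. In the cold, 6 were higher and 2 lower in DPP4+ cells, of which 5 and 2 held under all scalings. In DPP4- cells limma called 0, against 5.22% of all genes, and 1 gene had an unadjusted p under 0.05, against 20.5% of all genes. The shares called were 78.6% and 85.7% between populations at 22 and 6 °C, against 74.9% and 74.2% of all genes, and 57.1% in cold DPP4+ cells, against 46.1%. The proteases Mmp3, Mmp19, Adamts1 and Adamts4 were lower in DPP4+ cells at both temperatures. Adamts4 averaged 2983 ± 434 and 1643 ± 481 in DPP4+ cells and 24076 ± 4166 and 27531 ± 3167 in DPP4- cells, with differences of -3.01 ± 0.17 (adjusted p = 1.79e-12) and -4.11 ± 0.17 (adjusted p = 1.43e-14) at 6 and 22 °C. Mmp3 differed by -3.13 ± 0.095 (adjusted p = 1.29e-18) and -3.34 ± 0.095 (adjusted p = 5.97e-19). In cold DPP4+ cells Adamts9 rose to 1127 ± 259.8, against 204 ± 17.8 at 22 °C, with 2.43 ± 0.19 (adjusted p = 2.81e-09), and the inhibitor Timp1 rose with 0.66 ± 0.11 (adjusted p = 5.42e-05). Mmp11 fell, with -1.97 ± 0.17 (adjusted p = 5.67e-09). Of 17 tested further components and linkers outside the 35, DPP4+ cells had 3 higher and 10 lower at 22 °C and 5 higher and 8 lower at 6 °C, with 3 and 8 and 5 and 7 under all 4 scalings, a share called of 76.5% at each temperature that is near those of all genes. Sparcl1, a relative of Sparc, averaged 301 ± 23.6 and 369 ± 79.6 in DPP4+ cells and 23489 ± 1691 and 26775 ± 2769.9 in DPP4- cells, with differences of -6.28 ± 0.10 (adjusted p = 1.08e-22) and -6.20 ± 0.10 (adjusted p = 2.53e-22). Col6a3, a chain of the type VI collagen that links basement membranes to the stroma, differed by -2.76 ± 0.13 (adjusted p = 1.67e-15) and -2.90 ± 0.13 (adjusted p = 7.6e-16). Crim1, a membrane protein that binds growth factors, was higher in DPP4+ cells, with 2.03 ± 0.083 (adjusted p = 2.42e-16) and 1.91 ± 0.083 (adjusted p = 9.06e-16). In the cold 3 of this list were higher and 4 lower in DPP4+ cells (41.2% called, against 46.1% of all genes) and 0 higher and 3 lower in DPP4- cells (17.6%, against 5.22%), among them a rise of Col7a1, the anchoring fibril collagen, in DPP4+ cells, with 0.73 ± 0.13 (adjusted p = 8.24e-05).

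Endothelial, mural and Schwann cells also make basement membranes, and their markers were read in the same libraries. The summed level of 12 endothelial markers was 2861 to 4339 and 2716 to 3436 normalized reads in DPP4+ libraries at 6 and 22 °C, against 949.8 to 1582 and 1200.5 to 1549 in DPP4- libraries. Tek made up most of it, averaging 2983 and 2811 in DPP4+ cells and 944 and 888 in DPP4- cells. The defining markers Pecam1 and Cdh5 averaged 23.2 and 21.7 in DPP4+ cells at 6 °C, 23.7 and 20.6 at 22 °C, 68.2 and 58.4 in DPP4- cells at 6 °C and 73.6 and 69.8 at 22 °C. Of 10 tested endothelial markers, DPP4+ cells had 1 higher and 6 lower at 22 °C and 3 higher and 7 lower at 6 °C, and Kdr averaged 251 in cold DPP4+ cells against 30.3 at 22 °C. The 13 pericyte and smooth muscle markers summed to 4292 to 7171 and 9396 to 12171 in DPP4+ libraries at 6 and 22 °C and 5124 to 6849.5 and 4219.9 to 5686 in DPP4- libraries. Acta2 and Tagln carried the sum in DPP4+ cells, at 3083 and 2123 at 6 °C and 6046 and 3700 at 22 °C, against 44.5 and 70.2 in DPP4- cells at 6 °C and 45.6 and 74.9 at 22 °C. Other markers of this list did not share a direction. Notch3 and Abcc9 averaged 138 and 342 in DPP4+ cells at 6 °C, against 1812 and 3369 in DPP4- cells. At 22 °C they averaged 239 and 222, against 1594 and 2558. Myh11 was also lower in DPP4+ cells, at 22.3 and 77.04 at 6 and 22 °C, against 208 and 152. Mcam was higher there, at 39.93 and 43.97, against 26.2 and 19.95. Rgs5 means were lower in DPP4+ cells and Cnn1 means higher at both temperatures. Means of Cspg4 and Des were higher in DPP4+ cells at 22 °C only, and those of Kcnj8 at 6 °C only. Ndufa4l2 averaged 3.34 and 2.37 in DPP4+ cells at 6 and 22 °C, against 138 and 178 in DPP4- cells. Of the 12 tested, DPP4+ cells had 4 higher and 6 lower at 22 °C and 4 higher and 5 lower at 6 °C, and 2 were higher and 5 lower in cold DPP4+ cells. The 8 Schwann cell markers summed to 159 to 304 and 202 to 258 in DPP4+ libraries and 205 to 486 and 388 to 723 in DPP4- libraries. The 8 mature adipocyte markers summed to 637 to 1170.4 and 1340.3 to 1805 in DPP4+ and 3395 to 5231 and 2092 to 3969 in DPP4- libraries. Plin4 carried the DPP4- sum, at 212 and 214 in DPP4+ cells at 6 and 22 °C, against 3831 and 2998 in DPP4- cells. Adipoq ran the other way, at 230 and 332, against 33.2 and 20.1, and of the 6 tested DPP4+ cells had 4 higher and 1 lower at 22 °C and 2 higher and 2 lower at 6 °C. No marker of these lists was at 0 in all 20 libraries, and the part of these cells in the results above was not tested.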

How the data were processed

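Bulk RNA-seq libraries were analysed, 20 in 4 groups of 5, grouped by the labels of subpopulation and temperature. The authors deposited 1 table of signal values, in which each gene count is divided by a factor of its library. The submitters' processing notes name DESeq2 1.6.3, featureCounts 1.4.6, HISAT2 2.0.1 and Trim Galore 0.4.1, and as builds mm10 and GRCm38, without saying what each was used for. Which annotation and which strand setting entered the counting is not given in the sources used here, and reads of genes that overlap cannot be told apart.

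All values were whole multiples of 1 step per library (100% of values, tolerance 0.1 read, farthest 0.000237 read), from which whole reads were recovered, 8.49 to 18.8 M per library. Rows without a symbol, 958 of 27179, took 0.0610 to 0.0824% of reads. No 2 libraries of a group agreed within sampling noise (chi-square per degree of freedom 3.13 to 46.6). The 13057 genes that averaged 10 or more normalized reads were fitted as log2(value + 1) with limma 3.58.1 in R 4.3.3, with 4 group means over all libraries and moderated variances with trend and robust estimation. P-values are two-sided and adjusted by Benjamini-Hochberg over all tested genes within each contrast, with a threshold of 0.05. The added count test on the recovered whole reads, edgeR 4.0.16 quasi-likelihood, called 9819, 9731, 6513, 615 and 4347 genes in DPP4+ against DPP4- cells at 22 and 6 °C, cold in DPP4+ cells, cold in DPP4- cells and the difference of the cold effects, of which 30, 26, 14, 8 and 13 were members. DESeq2 1.42.0 called 9812, 9711, 6612, 904 and 4534 genes and 30, 27, 15, 12 and 14 members. Other alternatives were the scaling, the filter, the pseudocount, sample weights, the groups in the fit, a replicate block and leaving out each library.

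The members, classes and lists were chosen with earlier results of these data known. All 35 members are accounted for. Called members are named with group values, and those highest per kb in a class or most different in a contrast with the value of every library. Up to 4 genes per list and contrast with the smallest p-values could be named from the lists of partners. Values for Col4a5, Lamb2, Lamb3, Nid1 and Ntn4 by library were added to show overlap or separation. Levels per kb use exon lengths from GENCODE vM21. Coordinates and start windows are from RefSeq on GRCm38.p6, and distances between starts from GENCODE vM21. Ratios were tested by exact permutation in SciPy 1.17.1. Tables and figures were made with Python 3.11.15, pandas 2.3.3 and matplotlib 3.10.9.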

Additional observations from a re-analysis of the deposited data

Results flagged for a closer look

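In 4 of 140 groups of 5 libraries examined, 1 library stood apart from the other 4, where chance gives about 1 in 20, or 7. Lama3 was at 4.94 normalized reads in library 5 of DPP4- cells at 6 °C, against 13.5 to 16.1 in the others. Lamb1 was at 8994 in library 3 of DPP4+ cells at 6 °C, against 8111 to 8317. Lamc3 was at 1283 in library 5 of DPP4- cells at 22 °C, against 817 to 918. Nid2 was at 2074 in library 5 of DPP4+ cells at 6 °C, against 2942 to 3223.

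The cold effect differed between DPP4+ and DPP4- cells for 12 members in the limma interaction term. This was 36.4% of the tested members, near the 33.2% of all tested genes. The log2 difference of the effects was 0.96 for Col4a1, 0.66 for Col4a2, 0.75 for Col4a3, 0.39 for Lamb1, 0.41 for Nid1, 0.38 for Agrn, 0.77 for Smoc2, 0.90 for Fras1 and 0.57 for Pxdn. It was -0.39 for Col15a1, -1.31 for Smoc1 and -1.43 for Frem1. Of these, Lamb1, Nid1, Agrn and Smoc2 were not called under all 4 scalings.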

How the results depend on the processing

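Over 12 alternative settings and 20 libraries left out in turn, 5231 values of members were recomputed. Of these, 4999 kept their side of the threshold without a reversal, 94 newly passed it, 116 no longer did and 22 reversed. Among the 4999, 90 changed sign without passing the threshold before or after. The reversals were all between populations, and only the scaling gave them. With totals set equal, DPP4+ minus DPP4- cells at 22 °C gave 0.33 for Col4a5, 0.27 for Lama4, 0.33 for Lamb2, 0.093 for Lamc1, 0.42 for Nid1, 0.14 for Agrn, 0.085 for Smoc1, 0.38 for Dag1 and 0.17 for Pxdn, and at 6 °C 0.46 for Lamb2, 0.18 for Lamc1, 0.37 for Agrn and 0.15 for Dag1. Quantile normalization gave 0.15 for Col4a5, 0.32 for Lama4, 0.46 for Lamb2, 0.31 for Lamc1, 0.72 for Nid1, 0.21 for Dag1 and 0.11 for Pxdn at 22 °C and 0.62 for Lamb2 and 0.41 for Lamc1 at 6 °C. Members called in cold DPP4- cells numbered 4 with quantile normalization and 5 to 12 with 1 library left out (5 without DPP4- library 3 at 6 °C or library 1 at 22 °C), against 8. Over all genes that comparison gave 681 calls, 1142 with totals set equal, 392 when its groups alone were fitted, 434 with sample weights and 480.0 to 938 with 1 library left out. The cause was not tested. In the other comparisons leaving out 1 library gave 28 to 31 members at 22 °C, 25 to 27 at 6 °C, 11 to 13 in cold DPP4+ cells and 9 to 17 for the difference of the cold effects. Counts over all genes are not set beside these ranges, which therefore do not tell whether members moved apart from other genes. No label tells whether same-numbered libraries came from the same mouse, and the numbers were not taken as pairs. Over the 4 pairs of groups, the lowest correlation of deviations between same-numbered libraries was 0.029, 0.0166, -0.00733 and -0.228. The median was 0.0433, 0.0741, 0.0718 and 0.054, above that between other numbers, at -0.00906, -0.0121, -0.0166 and 0.00338. Of 5 libraries, 2, 4, 2 and 3 correlated best with their own number. The last 2 of these pairs set 6 °C against 22 °C libraries, which cannot come from the same mouse. Their medians were near those of the first 2, which set DPP4+ against DPP4- libraries of 1 temperature. These correlations therefore do not tell whether mice were shared, which remains possible within a temperature. With the number as a replicate block, 30, 27, 13, 10 and 12 members were called and 9770, 9694, 6013, 709 and 4317 genes. Depth limits Lama1, Frem2, Lama3 and the low population of Lamc3, Egflam and Npnt.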
